A study of Mus musculus with 8 samples.

Results

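Samples titled 3 and 4 were compared with samples titled 1 and 2 in cultures of mouse CD8 T cells grown in 2 kinds of conditioned medium. All 8 samples of the series entered the comparison, 4 on each side, and each side held 2 samples of each medium. The titles number the samples from 1 to 4 within a medium, and no label says what the numbers stand for, so the contrast is between numbers and not between named treatments. The T cells were isolated by negative selection from spleens of C57BL/6 mice and kept for 48 hours in 200 µl of medium taken from B16F10 melanoma cells, with a supplement named LDS in the labels. Antibodies to CD28 and CD3 were present at 2 µg/ml. The melanoma cells were either SSBP4 knockout or SSBP4 wild type and had conditioned the medium for 48 hours. Every sample of both sets therefore shared the spleen source, the antibodies and the culture time, and the 4 groups were wild-type medium with numbers 1 and 2, wild-type medium with numbers 3 and 4, and the same for knockout medium. RNA was measured on the nCounter Myeloid Innate Immunity panel, in which fluorescent barcodes on hybridised probes are counted directly. The series' design text describes the 4 samples of each medium as biological samples. Neither it nor any label says whether the knockout line was 1 clone or whether samples with different numbers came from different mice, cultures or batches of medium, so p-values cover the spread among these 8 samples alone, and that spread may be technical.

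Interferons are secreted proteins that bind receptors on nearby cells, act through JAK kinases and STAT factors, and switch on a shared set of genes that includes the IRF transcription factors, antiviral proteins, chemokines and the machinery of MHC class I. Interferon gamma, a product of activated CD8 T cells, also induces MHC class II genes in many cell types. Activated CD8 T cells that turn into effector cells gain cytotoxic molecules, receptors for inflammatory chemokines and the checkpoint receptor PD-1.

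The panel held 754 genes, whose deposited values are counts scaled by 1 factor per sample. Recovered total counts ran from 188174 to 346676 per sample. They parted the sets within each medium, in opposite directions. In wild-type medium samples 1 and 2 held 346676 and 310338 counts against 309151 and 259954 in samples 3 and 4, and in knockout medium 188174 and 217944 against 311980 and 320804. An exact permutation test within media could not pass, since the smallest p that its 36 assignments allow is 0.0556. Genes with a mean under 22, a level near the negative control probes, were left out, and 455 genes were tested. Of these, 13 had a mean under 22 over samples 1 and 2 and 11 had a mean under 22 over samples 3 and 4, so they passed only through the other set. The 13 included Pdcd1, Cxcl9, Rgs1, H2-Eb1, Tnf, Tnfsf10 and Pik3cg, whose calls as higher are not independent of that minimum. The medium separated the libraries more than the number did: the first principal component held 88.3% of the variance and parted the media. The second held 7.47% and parted samples 3 and 4 (scores of 2.56 to 8.88) from samples 1 and 2 (scores of -9.39 to -1.83). Of 16 T cell markers 5 were measured, Cd247, Lat, Cd28, Cd27 and Ptprc. Their summed level was 334 to 396 and 437 to 596 in samples 1-2 and 3-4 of wild-type medium, and 820 to 1062 and 1149 to 1472 in those of knockout medium. Cd3e and Cd8a were not analysed here. The summed level of 7 measured fibroblast and mesenchymal markers was 6644 to 7653 in wild-type medium, led by Cd34, and 58.8 to 96.1 in knockout medium. The melanoma list's only measured gene, Met, stood at 377 to 457 and 2010 to 3194 in the respective media. These transcripts are not usual for CD8 T cells, and which cells they came from was not tested. In such bulk RNA, fewer cells of a type and less RNA per cell cannot be told apart.

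Samples 3 and 4 held higher levels of effector T cell genes in both media, and many interferon-stimulated and MHC genes were higher in samples 3 and 4 of knockout medium by more than in wild-type medium. With medium as a covariate, 97 of 455 genes differed between the number sets (limma, adjusted p under 0.05), 21.3% of those tested. Of these, 90 genes were higher in samples 3 and 4 (19.8%) and 7 were lower (1.54%), and 82 of the 90 had a mean of at least 22 in both sets. The difference between sets depended on the medium for 85 genes, 18.7% of those tested, with 77 more positive (16.9%) and 8 more negative (1.76%) in knockout medium than in wild-type medium (limma interaction term, adjusted p under 0.05). The total count was also higher in samples 3 and 4 of knockout medium and lower in those of wild-type medium, and its part in the interaction was not tested. Of the 90 genes that rose, 26 also had a positive interaction and 64 had none that passed. Within wild-type medium 70 genes passed, 15.4% of those tested, with 43 higher (9.45%) and 27 lower (5.93%). Within knockout medium 154 passed, 33.8% of those tested, with 140 higher (30.8%) and 14 lower (3.08%). A total of 34 genes were higher within both media, 103 passed as higher in knockout medium alone and 8 in wild-type medium alone. The difference between the sets exceeded the difference within a pair. The median absolute log2 difference over genes was 0.36 between sets in knockout medium, against 0.17 between samples 1 and 2 and 0.21 between samples 3 and 4, and 0.20 in wild-type medium, against 0.14 and 0.15. Without regard to the test, samples 3 and 4 both lay above samples 1 and 2 within each medium for 108 genes (23.7%) and below for 24 (5.27%). Taken singly, wild-type medium had them above for 32.3% of genes and knockout medium for 55.8%.

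How the libraries were scaled set the balance of higher and lower genes. Under median scaling the set difference gave 54 higher and 75 lower genes, under quantile normalization 46 and 52, and under positive-control factors alone 67 and 1. It gave 65 and 44 by edgeR (TMM), 62 and 36 by DESeq2, and 28 and 161 when each sample was scaled to its T cell receptor genes, an alternative chosen after seeing the data. The interaction gave 29 and 51, 28 and 31, 192 and 2, 48 and 16, 33 and 15, and 43 and 1 in the same order. The median log2 difference between the sets over all 455 genes was 0.11 as deposited and ranged over these scalings from -0.41 to 0.17, so small differences of either sign are relative to the scaling. Leaving out knockout medium sample 1, 2, 3 or 4 left 38, 42, 43 or 42 higher genes, and leaving out a wild-type medium sample left 63, 86, 69 or 83. Leaving out wild-type sample 1 or 2 or knockout sample 1 or 3 left 46, 41, 47 or 38 positive interactions. Among the genes named by rule, 65 passed for the set difference, and 22 of them kept their call under every alternative that retained the medium as a covariate. Without that covariate no gene passed (limma, 26 higher and 0 lower at an unadjusted p under 0.05).

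**Figure D1:**
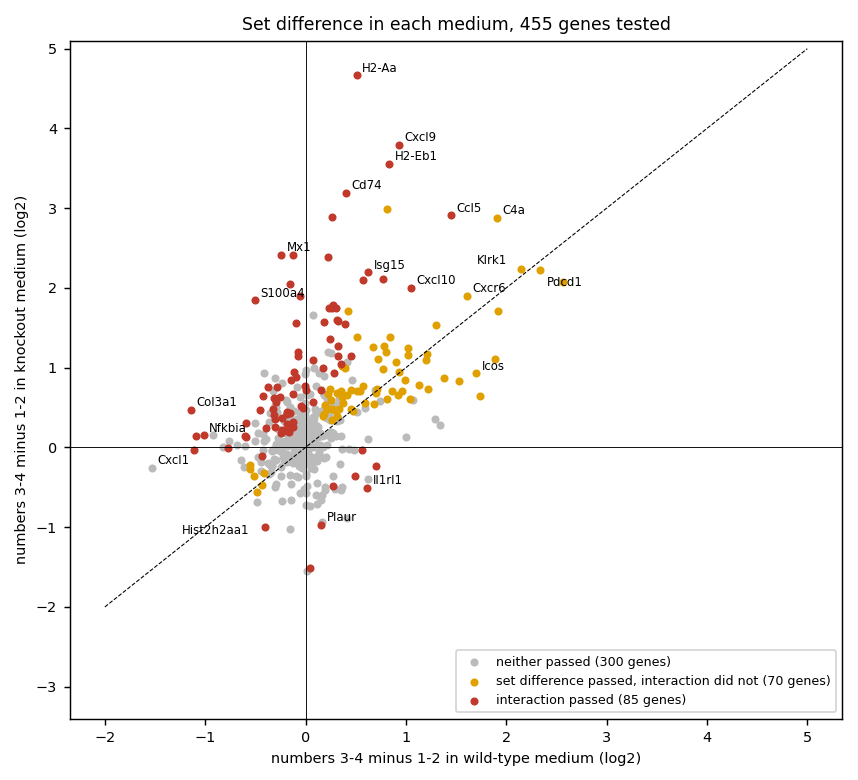
Log2 difference of samples 3 and 4 from samples 1 and 2 for the 455 tested genes, in wild-type medium (horizontal) and knockout medium (vertical), with the dashed line marking equal differences. Effector T cell genes such as Klrk1, Pdcd1 and Cxcr6 lie near the line at the right, while H2-Aa, Cd74, Cxcl9 and Mx1 lie high above it and Nfkbia and Col3a1 lie at the left.

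Across the 455 genes the difference in wild-type medium and that in knockout medium had a Pearson correlation of 0.47 and a Spearman correlation of 0.43, given as a description since genes are not independent. The sign was positive in both media for 180 genes, negative in both for 73, negative in wild-type and positive in knockout medium for 151, and the reverse for 51.

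Genes of cytotoxic and effector T cells were higher in samples 3 and 4 of both media. Of 7 tested genes of the cytotoxic effector and TNF ligand list, 5 rose in the set difference and the others did not pass, against 19.8% higher over all genes. The list had a median log2 difference of 1.11, against 0.11 over all genes. Tnf and Tnfsf10 were among the 5 and passed the minimum level only through samples 3 and 4. No member had an interaction that passed (limma, 0 higher and 1 lower at an unadjusted p under 0.05), while edgeR and DESeq2 each called 2 lower. Klrk1 encodes NKG2D, an activating receptor for stress-induced ligands on target cells. Its normalized value was 20.6 and 28.1 in wild-type medium samples 1 and 2 and 155 and 77.6 in samples 3 and 4. Klrk1 was 39.9 and 44.0 in knockout medium samples 1 and 2 and 213 and 189 in samples 3 and 4. Both samples 3 and 4 lay above both samples 1 and 2 in each medium, 4.77-fold and 4.79-fold higher by the means, and the log2 difference was 2.19 (SE 0.22, limma adjusted p = 0.0013). Nkg7, a granule membrane protein of cytotoxic lymphocytes, measured 95.0 and 142 against 378 and 243 in wild-type medium and 412 and 433 against 819 and 726 in knockout medium for samples 1 and 2 against 3 and 4. The sets did not overlap in either medium. The set difference of Nkg7 was 1.12 on the log2 scale (SE 0.18, limma adjusted p = 0.00335). The granzyme gene Gzma measured 25.3 and 57.0 against 148 and 114 in wild-type medium and 82.4 and 89.2 against 143 and 126 in knockout medium for the same pairs, without overlap in either medium. It rose by 1.19 on the log2 scale (limma adjusted p = 0.0233, 0.0179 to 0.0583 with 1 sample left out), which no longer passed without sample 3 of wild-type medium or with median or quantile scaling. Tnf, a cytokine of activated T cells and macrophages, was near background in wild-type medium, at 14.2 and 9.95 and then 20.9 and 23.4, and was 19.9 and 30.1 and then 74.2 and 57.8 in knockout medium, 2.64-fold higher. Tnfsf10, which encodes the death ligand TRAIL, rose by 0.88 on the log2 scale (SE 0.20, limma adjusted p = 0.0194, 0.017 to 0.065 with 1 sample left out), but lost its call without knockout medium sample 1 or 3.

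Ifng, which encodes interferon gamma, had a mean under 22 over the 8 samples and was not tested. Its values were 4.75 and 1.81 in wild-type medium samples 1 and 2 and 46.4 and 32.9 in samples 3 and 4. Ifng was 6.64 and 6.95 in knockout medium samples 1 and 2 and 27.6 and 19.0 in samples 3 and 4. Within each medium both samples 3 and 4 lay above both samples 1 and 2, which were all at background.

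Checkpoint genes were represented by 9 tested members, of which 4 rose and 5 did not pass, against 19.8% higher over all genes, with a median log2 difference of 0.49 that turned to -0.04 under T cell gene scaling. Pdcd1, the gene of PD-1, measured 11.1 and 9.05 in wild-type medium samples 1 and 2 and 71.9 and 41.4 in samples 3 and 4. Pdcd1 was 14.6 and 4.63 in knockout medium samples 1 and 2 and 50.9 and 36.02 in samples 3 and 4. Samples 1 and 2 of both media were below background and samples 3 and 4 of both media above it. They were at least 2.58-fold higher in wild-type and at least 1.98-fold higher in knockout medium (log2 difference 2.28, SE 0.34, limma adjusted p = 0.00267). Its interaction was -0.11 on the log2 scale (SE 0.67) and did not pass. Cd274, the gene of the PD-1 ligand PD-L1, measured 1772 and 2397 against 3284 and 3530.2 in wild-type medium and 859.5 and 1050.1 against 2154 and 1953 in knockout medium for samples 1 and 2 against 3 and 4. Cd274 rose by 0.92 on the log2 scale (SE 0.13, limma adjusted p = 0.00215). The checkpoint receptor genes Vsir and Tnfrsf14 rose by 0.50 and 0.49 on the log2 scale, and both turned sign under T cell gene scaling and lost their calls with median and quantile scaling, edgeR and DESeq2.

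**Figure D2:**
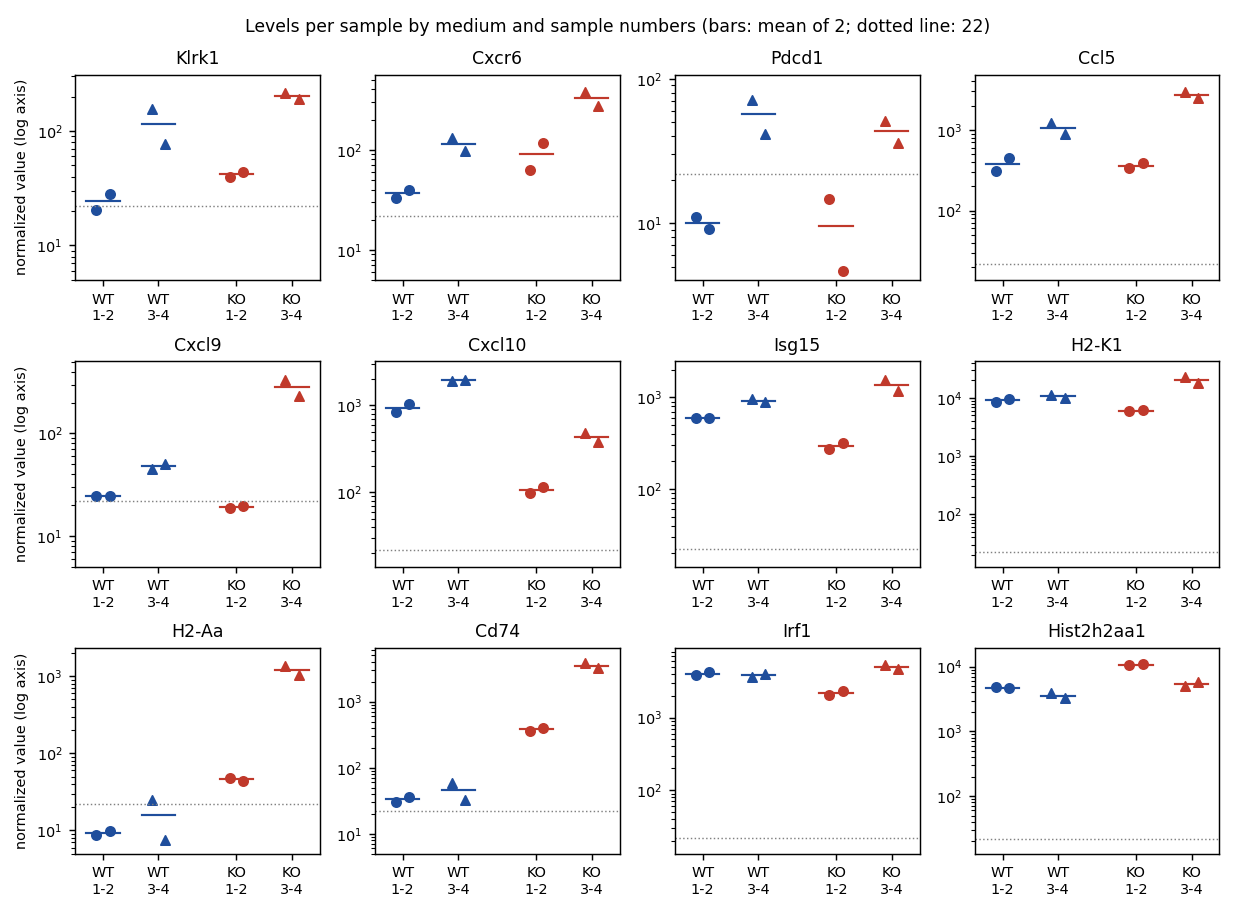
Normalized value per sample (log axis) of 12 genes in samples 1 and 2 (circles) and 3 and 4 (triangles) of wild-type medium (WT, blue) and knockout medium (KO, red), with bars at the mean of 2 samples and a dotted line at 22. Klrk1, Cxcr6, Pdcd1 and Ccl5 are higher in samples 3 and 4 of both media, H2-K1, H2-Aa, Cd74 and Irf1 mainly in knockout medium, and Hist2h2aa1 is lower in both.

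Several receptors that direct T cells to inflamed tissue rose in both media. Of 18 tested receptors for chemokines and homing, 6 rose, against 19.8% higher over all genes. The list's median log2 difference was 0.44 (-0.07 under T cell gene scaling). No member had an interaction that passed (limma, 1 higher and 0 lower at an unadjusted p under 0.05), nor did any with edgeR or DESeq2. Ccr2, a receptor for the monocyte chemoattractant CCL2, measured 20.6 and 42.5 against 146 and 90.3 in wild-type medium and 83.7 and 113 against 352 and 293 in knockout medium for samples 1 and 2 against 3 and 4. Cxcr6, the receptor for CXCL16 on tissue-resident and effector T cells, measured 33.3 and 39.8 against 131 and 97.8 in wild-type medium and 62.4 and 117 against 377 and 276 in knockout medium. Ccr2 was 3.74-fold higher in wild-type and 3.27-fold higher in knockout medium, and Cxcr6 3.13-fold and 3.64-fold (limma adjusted p = 0.00214 and 0.00148). Cxcr3, the receptor for CXCL9, CXCL10 and CXCL11, rose by 1.09 on the log2 scale (SE 0.16, limma adjusted p = 0.00257). Itgal, the alpha chain of the integrin LFA-1, measured 85.5 and 87.8 against 237 and 171 in wild-type medium and 229.8 and 269.8 against 642 and 492 in knockout medium. It was 2.35-fold and 2.27-fold higher in the respective media, with an interaction of -0.04 (SE 0.24) on the log2 scale. Ccr7, the lymph node homing receptor gene, measured 73.6 and 86.9 against 62.8 and 63.8 in wild-type medium and 252 and 257 against 245 and 196 in knockout medium and did not pass (limma adjusted p = 0.15).

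Of 7 tested genes of the T cell receptor list, 2 rose and the others did not pass, against 19.8% higher over all genes. At an unadjusted p under 0.05, 6 of the 7 were higher (limma), and 6 lay above without overlap in both media, against 23.7% of all genes. The list's median log2 difference of 0.46 was removed by construction when the samples were scaled to these genes. The co-stimulatory receptor gene Cd28 measured 14.2 and 16.3 against 53.7 and 39.3 in wild-type medium and 67.2 and 47.5 against 110.3 and 92.9 in knockout medium for samples 1 and 2 against 3 and 4. Cd28 rose by 1.18 on the log2 scale (SE 0.22, limma adjusted p = 0.00726). Ptprc, the CD45 phosphatase of all leukocytes, rose by 0.46 on the log2 scale (limma adjusted p = 0.046), and by 0.37 to 0.56 with 1 sample left out. Its call was lost under 14 of 21 alternatives, and T cell gene scaling, not counted among these, turned its sign. Cd247, the signalling zeta chain, measured 62.6 and 79.6 against 96.4 and 79.7 in wild-type medium and 153 and 175 against 229 and 186 in knockout medium and did not pass (log2 difference 0.32, SE 0.14, limma adjusted p = 0.143). The adaptor gene Lat differed by 0.71 (SE 0.26) and Cd27 by 0.32 (SE 0.21) on the log2 scale, and neither passed. Among 14 tested activation genes 3 rose and 11 did not pass, a share close to the 19.8% of all genes. Icos, an inducible co-stimulatory receptor gene, was 33.3 and 26.2 against 123 and 78.6 in wild-type medium and 77.0 and 74.1 against 151 and 139 in knockout medium, 3.39-fold and 1.92-fold higher in the respective media (limma adjusted p = 0.00335). Cd69, the early activation marker, rose by 0.53 and Nfatc2, a factor activated by calcium signals, by 0.83 on the log2 scale, both calls that were lost with edgeR, DESeq2, median, quantile and T cell gene scaling (limma adjusted p of 0.0416 to 0.115 and 0.0329 to 0.0958 with 1 sample left out).

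Outside those lists, the regulators of G protein signalling Rgs16 and Rgs1 rose by 1.5 and 1.42 on the log2 scale (limma adjusted p = 0.009 and 0.00257). Among 19 tested cytokine receptor and JAK-STAT genes, 6 rose and 13 did not pass, against 19.8% higher over all genes. With edgeR 4 were higher and 1 lower, and with DESeq2 4 were higher and 0 lower. The list's median log2 difference of 0.25 turned to -0.04 under median and -0.28 under T cell gene scaling. Il18r1, a chain of the IL-18 receptor, measured 42.0 and 33.5 against 109 and 54.2 in wild-type medium and 90.3 and 127 against 296 and 223 in knockout medium for samples 1 and 2 against 3 and 4. Il10ra, the IL-10 receptor chain, was 14.2 and 18.1 against 44.6 and 32.9 in wild-type medium and 62.4 and 56.7 against 141 and 117 in knockout medium. The log2 difference of Il18r1 was 1.13 (SE 0.23, limma adjusted p = 0.0111) and that of Il10ra 1.15 (SE 0.18, limma adjusted p = 0.00317). Within each medium the samples of the sets did not overlap.

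Some markers of other cells that could also hold these receptors were higher in samples 3 and 4, and others were not. The 2 measured natural killer cell markers were Klrk1 and Gzma, already described. The summed level of 19 measured macrophage and monocyte markers was 800 to 1062 in samples 1-2 and 1490 to 1972 in samples 3-4 of wild-type medium, and 897 to 1056 against 1728 to 2074 in knockout medium. Ly6c1, which activated CD8 T cells and monocytes both express, made up much of that sum, with 427 and 607 against 1298 and 965 in wild-type medium and 401 and 482 against 867 and 659.7 in knockout medium. Ly6c1 rose by 0.96 on the log2 scale (limma adjusted p = 0.00387). Of the defining macrophage genes, Adgre1 and Csf1r stood at most at 7.28 in any sample, below background, whereas Cd68 stood at 154 to 328 in every sample. Cd68 was 192 and 236 against 328 and 269.9 in wild-type medium and 166 and 204 against 154 and 209 in knockout medium. The part of other cells in the results was not tested.

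Receptor, transducer and target genes of the interferon system had members that rose in knockout medium. Of 7 measured genes of the list of interferons and inducing cytokines only Il18, which is not an interferon, was tested. Il18, which encodes a cytokine that drives interferon gamma production, measured 30.9 and 22.6 against 30.0 and 34.0 in wild-type medium and 49.1 and 39.4 against 181 and 123 in knockout medium for samples 1 and 2 against 3 and 4. It was 3.44-fold higher in knockout medium (interaction 1.48, SE 0.39, limma adjusted p = 0.0205, 0.016 to 0.0859 with 1 sample left out). Of the receptor genes Ifngr1, Ifnar1 and Ifnar2, 1 rose. Ifngr1, the ligand-binding chain of the interferon gamma receptor, was 413 and 439 against 595 and 414 in wild-type medium and 649.6 and 685 against 1172 and 962 in knockout medium. Wild-type medium sample 3 lay above the other 3 of that medium (log2 difference 0.45, limma adjusted p = 0.0491, 0.00632 to 0.141 with 1 sample left out). That call was lost with edgeR, DESeq2 and every other scaling but T cell gene scaling, which turned its sign. Ifnar2 and Ifnar1, the type I receptor chains, differed by 0.29 and 0.18 and did not pass (limma adjusted p = 0.0515 and 0.245).

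Among the tested signal transducers, Socs1, an interferon-induced inhibitor of JAK kinases, rose. It measured 239 and 281 in wild-type medium samples 1 and 2 and 499 and 474 in samples 3 and 4. Socs1 was 209 and 266 in knockout medium samples 1 and 2 and 557 and 439.8 in samples 3 and 4. Samples 3 and 4 lay above samples 1 and 2 by 1.87-fold and 2.10-fold in the respective media (log2 difference 0.99, SE 0.12, limma adjusted p = 0.00148, interaction 0.16, SE 0.21). Socs3 differed by 0.42 on the log2 scale and did not pass (limma adjusted p = 0.125).

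Interferon regulatory factors diverged by medium. Of 6 tested factors, 1 passed for the set difference but 4 had a positive interaction, against 16.9% of all tested genes, and the list's median interaction was 0.92, against 0.23 over all genes. Irf7, the amplifier of type I interferon production, measured 113 and 105 against 192 and 181 in wild-type medium and 50.5 and 77.6 against 322 and 232 in knockout medium for samples 1 and 2 against 3 and 4. It was 1.71-fold higher in wild-type and 4.33-fold higher in knockout medium (interaction 1.34, SE 0.30, limma adjusted p = 0.00838, 0.00158 to 0.0666 with 1 sample left out), an interaction lost without knockout medium sample 3. Irf1, a factor that interferon induces, was 3806 and 4185 in wild-type medium samples 1 and 2 and 3632 and 3973 in samples 3 and 4. Irf1 was 2025 and 2324 in knockout medium samples 1 and 2 and 5249 and 4678 in samples 3 and 4. In wild-type medium its samples overlapped, whereas in knockout medium samples 3 and 4 were 2.28-fold higher (interaction 1.26, SE 0.13, limma adjusted p = 6.45e-05). Irf8, a factor of myeloid and B cells that interferon gamma also induces, was near background in wild-type medium, at 5.54 and 8.14 and then 14.6 and 4.25. It went from 53.1 and 71.8 to 373 and 285 in knockout medium, 5.27-fold. Its interaction of 2.16 (SE 0.62, limma adjusted p = 0.0283, 0.00189 to 0.148 with 1 sample left out) lost its call with quantile normalization, edgeR and DESeq2 and without any of 6 single samples. Irf2 had a smaller interaction of 0.57 on the log2 scale, which was lost under 11 of 20 alternatives.

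Of 14 tested interferon-stimulated genes, 9 rose between the sets, against 19.8% higher over all genes, and 5 did not pass. The list's median log2 difference was 0.92, against 0.11 over all genes. A positive interaction was found for 7 members, against 16.9% of all tested genes. The list's median interaction was 1.11, against 0.23 over all genes. Both medians of the list stayed above 0 under every scaling tried, at 0.39 to 0.98 and 0.69 to 1.51. In wild-type medium the list's median was 0.52 (-0.02 under T cell gene scaling) and in knockout medium 1.45. Cxcl10, a chemokine that draws CXCR3-bearing T cells, measured 828 and 1046 in wild-type medium samples 1 and 2 and 1901 and 1956 in samples 3 and 4. Cxcl10 was 98.3 and 115 in knockout medium samples 1 and 2 and 476 and 383 in samples 3 and 4. Samples 3 and 4 were higher without overlap in each medium, 2.06-fold and 4.04-fold (log2 difference 1.52, SE 0.19, limma adjusted p = 0.00148). Its level in wild-type medium samples 1 and 2 was above that in knockout medium samples 3 and 4. Isg15, a ubiquitin-like antiviral protein, measured 593 and 601 in wild-type medium samples 1 and 2 and 949.8 and 896 in samples 3 and 4. Isg15 was 271 and 315 in knockout medium samples 1 and 2 and 1533 and 1177 in samples 3 and 4. It was 1.55-fold higher in wild-type and 4.62-fold higher in knockout medium (interaction 1.57, SE 0.17, limma adjusted p = 6.45e-05). Cxcl9, another CXCR3 ligand that is induced chiefly by interferon gamma, was 24.6 and 24.4 in wild-type medium samples 1 and 2 and 45.5 and 49.95 in samples 3 and 4. Cxcl9 was 18.6 and 19.7 in knockout medium samples 1 and 2 and 336 and 231 in samples 3 and 4. It was 1.95-fold higher in wild-type and at least 12.9-fold higher in knockout medium (interaction 2.86, SE 0.35, limma adjusted p = 0.000133). Mx1, an antiviral GTPase, was 30.1 and 19.9 and then 20.9 and 20.2 in wild-type medium, where it did not pass, and went from 33.2 and 48.6 to 227 and 210.4 in knockout medium (interaction 2.66, SE 0.40, limma adjusted p = 0.000528). Cxcl11, the third CXCR3 ligand, rose by 0.70 over both media on the log2 scale (limma adjusted p = 0.0233, 0.032 to 0.0683 with 1 sample left out), with an interaction of -0.01 (SE 0.34) that did not pass. The set difference of Cxcl9 passed as well (limma adjusted p = 0.0126, 0.00997 to 0.0521 with 1 sample left out).

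Promoter sequence was read for genes of this group because interferon acts through 2 short DNA elements: the ISRE, bound by IRFs and related complexes, and the GAS element, bound by STAT dimers. RefSeq windows of GRCm38.p6, from 250 bases before to 50 after a gene's start, were available for 345 of the 455 tested genes and were searched on both strands for GAAANNGAAA (ISRE) and TTCNNNGAA (GAS). The ISRE letters were in the windows of 3.99% of 27025 genes, 6.67% of tested genes and 15.9% of the genes higher in samples 3 and 4 that had a window (10 of 63). They were in 6.45% of those with a positive interaction and 5.31% of those with no call. The GAS letters were in 9.55% of all genes, 11.3% of tested genes and 7.94% of the genes higher in samples 3 and 4. A match describes letters and is not evidence of binding. The 250 bases before the start are shown for 3 genes that rose in both media and hold the ISRE letters, and for Irf1, with its interaction, which holds the GAS letters in this window and not in a second one. Capitals mark the matched letters, and overlapping matches form 1 run in Isg15 (3 matches) and in Socs1 (2 matches).
Cxcl10 (chr5:92348890-92349139, minus strand): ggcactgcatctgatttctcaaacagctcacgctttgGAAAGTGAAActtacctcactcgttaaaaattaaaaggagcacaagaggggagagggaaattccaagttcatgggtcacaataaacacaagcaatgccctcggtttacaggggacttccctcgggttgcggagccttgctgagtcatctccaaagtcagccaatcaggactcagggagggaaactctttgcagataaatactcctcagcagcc
Isg15 (chr4:156200819-156201068, minus strand): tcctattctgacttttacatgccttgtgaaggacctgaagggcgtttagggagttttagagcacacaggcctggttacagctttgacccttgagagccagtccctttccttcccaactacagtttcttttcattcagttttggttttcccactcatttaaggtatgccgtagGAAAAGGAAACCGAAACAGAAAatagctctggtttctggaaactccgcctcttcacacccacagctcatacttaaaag
Socs1 (chr16:10785537-10785786, minus strand): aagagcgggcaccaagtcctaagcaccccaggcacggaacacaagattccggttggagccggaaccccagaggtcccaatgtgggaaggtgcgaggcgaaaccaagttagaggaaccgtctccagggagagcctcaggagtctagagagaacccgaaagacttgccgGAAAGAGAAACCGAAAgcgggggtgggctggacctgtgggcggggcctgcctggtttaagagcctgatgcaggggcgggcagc
Irf1 (chr11:53769764-53770013, plus strand): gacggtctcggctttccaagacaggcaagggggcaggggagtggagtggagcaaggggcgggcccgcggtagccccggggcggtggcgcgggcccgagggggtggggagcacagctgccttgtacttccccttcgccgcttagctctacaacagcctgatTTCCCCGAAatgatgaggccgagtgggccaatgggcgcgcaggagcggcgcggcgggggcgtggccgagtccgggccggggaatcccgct

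**Figure D3:**
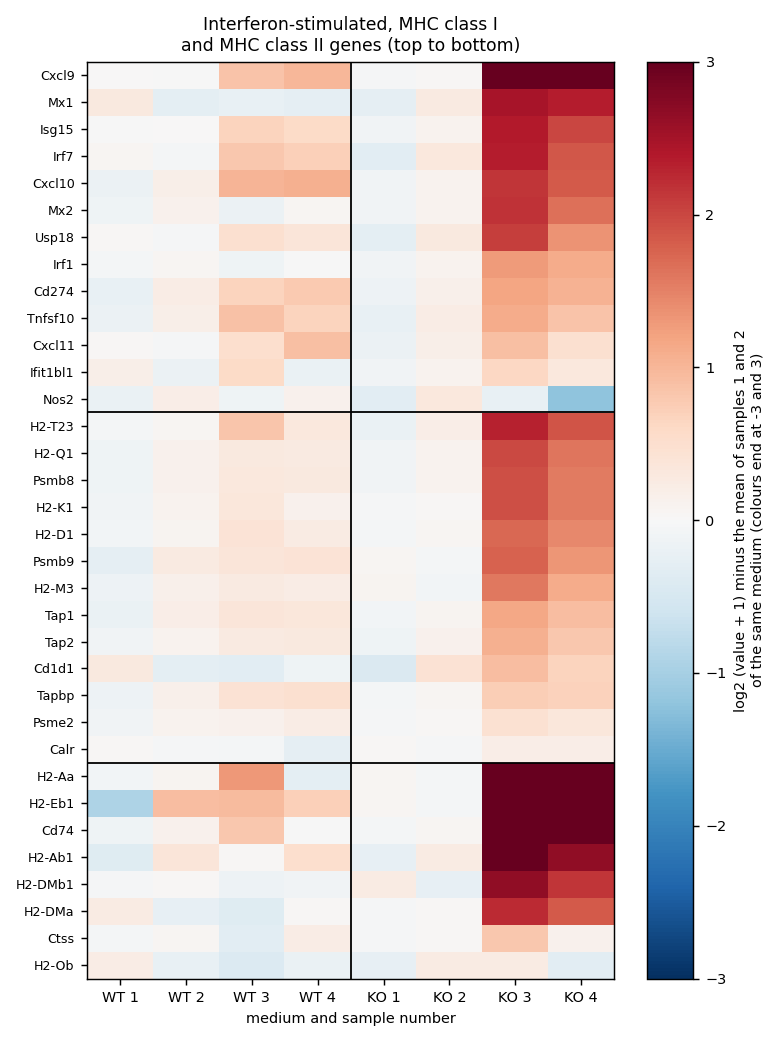
Colour map of log2(value + 1) minus the mean of samples 1 and 2 of the same medium for 34 interferon-stimulated, MHC class I and MHC class II genes, by sample, with colours ending at -3 and 3. Knockout medium samples 3 and 4 are red for most genes of all 3 blocks, while wild-type medium samples 3 and 4 are pale outside the interferon-stimulated block.

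Ccl5 joined the effector and the interferon groups. This chemokine gene of activated T cells measured 310.4 and 454 in wild-type medium samples 1 and 2 and 1206 and 878 in samples 3 and 4. Ccl5 was 335 and 388 in knockout medium samples 1 and 2 and 2928 and 2516 in samples 3 and 4. It was 2.73-fold higher in wild-type and 7.53-fold higher in knockout medium (log2 difference 2.18, SE 0.28, limma adjusted p = 0.00156), with an interaction of 1.46 (SE 0.25, limma adjusted p = 0.00144). Of 8 tested chemokine ligands 4 rose, against 19.8% higher over all genes, and 4 did not pass. Those that rose were Ccl5, Cxcl9, Cxcl10 and Cxcl11. EdgeR and DESeq2 each gave 4 higher and 2 lower. Within wild-type medium 3 were higher and 1 was lower, against 9.45% and 5.93% of all genes. Cxcl1 measured 238 and 218 against 64.6 and 94.6 in wild-type medium and was below background in knockout medium.

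Most MHC class I genes rose between the sets, with larger differences in knockout medium. Of 13 tested members of the class I and antigen processing list, 11 rose, against 19.8% higher over all genes, and 2 did not pass. The list's median log2 difference was 0.80, against 0.11 over all genes. A positive interaction was found for 10 members, against 16.9% of all tested genes. The list's median interaction was 1.11, against 0.23 over all genes. The medians of the list ranged over the scalings from 0.27 to 0.86 and from 0.68 to 1.51. Under T cell gene scaling only 1 member was called higher and 1 lower in the set difference, and 7 had a positive interaction. In wild-type medium 2 members passed as higher, against 9.45% of all genes, with a median of 0.29, which turned to -0.27 under T cell gene scaling. In knockout medium 11 passed as higher, against 30.8% of all genes, with a median of 1.35. H2-T23, the class Ib molecule Qa-1, measured 67.3 and 72.4 against 125 and 87.1 in wild-type medium and 331 and 435 against 1890.2 and 1399 in knockout medium for samples 1 and 2 against 3 and 4. It was 1.52-fold and 4.29-fold higher (interaction 1.52, SE 0.27, limma adjusted p = 0.00198). Tap1, a chain of the transporter that brings peptides to class I, measured 1573 and 2082 against 2340.0 and 2285 in wild-type medium and 1524 and 1707 against 3613 and 3081 in knockout medium. Tap1 rose by 0.70 on the log2 scale (SE 0.15, limma adjusted p = 0.0143, 0.00247 to 0.0555 with 1 sample left out). Its partner chain Tap2 measured 457 and 534 against 598 and 608 in wild-type medium and 274 and 323 against 621 and 518 in knockout medium. Tap2 rose by 0.61 on the log2 scale (SE 0.14, limma adjusted p = 0.0206, 0.00938 to 0.0645 with 1 sample left out). Both calls were lost without knockout medium sample 2 or 4. Tapbp, which bridges the transporter to class I, rose by 0.59 over both media on the log2 scale (SE 0.09, limma adjusted p = 0.00335), a call lost with quantile normalization and T cell gene scaling. Its interaction of 0.26 (SE 0.14) did not pass. H2-K1, a classical class I heavy chain singled out after its values were seen, was 8453 and 9673 against 11414 and 9899 in wild-type medium and 5925 and 6162 against 23068 and 17728 in knockout medium. It had an interaction of 1.51 (SE 0.16, limma adjusted p = 6.45e-05). H2-K1 and H2-D1 are close in sequence, and whether their probes tell them apart was not tested.

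MHC class II genes rose in knockout medium, and none passed in wild-type medium. Of 8 tested members, 4 rose in the set difference, against 19.8% higher over all genes, and 4 did not pass. A positive interaction was found for 6 members, against 16.9% of all tested genes. The list's median interaction was 2.58, against 0.23 over all genes. The median interaction ranged over the scalings from 2.16 to 2.97. In wild-type medium 0 members passed (limma, also 0 at an unadjusted p under 0.05 and 0 with edgeR and DESeq2), with a median of 0.11, which turned below 0 with positive-control factors, quantile normalization and T cell gene scaling. In knockout medium 6 passed, with a median of 2.65. H2-Aa, the alpha chain of I-A, measured 8.71 and 9.95 in wild-type medium samples 1 and 2 and 24.6 and 7.44 in samples 3 and 4. H2-Aa was 47.8 and 44.0 in knockout medium samples 1 and 2 and 1364 and 1039.7 in samples 3 and 4. In wild-type medium all 4 samples were near or below background and overlapped, whereas knockout medium samples 3 and 4 were 26.2-fold above samples 1 and 2 (interaction 4.16, SE 0.57, limma adjusted p = 0.000238). Its beta chain partner H2-Ab1 was 9.5 and 16.3 against 12.7 and 18.1 in wild-type medium and 37.2 and 52.1 against 387 and 284 in knockout medium. H2-Eb1, the beta chain of I-E, was 1 and 6.33 against 6.37 and 5.31 in wild-type medium and 21.3 and 19.7 against 273 and 233 in knockout medium. Cd74, the invariant chain, measured 30.1 and 36.2 in wild-type medium samples 1 and 2 and 58.2 and 32.9 in samples 3 and 4. Cd74 was 364 and 401 in knockout medium samples 1 and 2 and 3815 and 3208 in samples 3 and 4. It was 9.19-fold higher in knockout medium without overlap (interaction 2.79, SE 0.30, limma adjusted p = 6.45e-05). The peptide exchange factor chains H2-DMa and H2-DMb1 differed by -0.16 and -0.12 in wild-type and rose by 2.05 and 2.41 in knockout medium on the log2 scale (limma interaction adjusted p = 0.000403 and 0.000238). The set differences over both media of H2-Aa, Cd74, H2-Eb1 and H2-Ab1 passed, at 2.59, 1.80, 2.20 and 1.58, but each lost its call when any single knockout medium sample was left out (limma adjusted p up to 0.126, 0.104, 0.0951 and 0.143). The interactions of H2-Aa, Cd74, H2-Ab1, H2-DMa and H2-DMb1 kept theirs under all alternatives, while that of H2-Eb1 lost it without any of 6 single samples (limma adjusted p of 0.00106 to 0.0994).

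Markers of professional antigen-presenting cells were read beside the class II genes. The dendritic cell genes Itgax, Flt3, Xcr1 and Clec9a stood at most at 10.6 in any sample. The B cell genes Ms4a1 and Fcer2a had summed levels of 17.2 to 32.4 in samples 1-2 and 14.3 to 31.8 in samples 3-4. The dendritic cell list as a whole, 9 of 14 genes, summed to 870 to 890 and 795 to 799 in samples 1-2 and 3-4 of wild-type medium, led by Fscn1, and to 363 to 368 and 535 to 681 in those of knockout medium, where Irf8 rose. Fcgr4, an Fc receptor gene of monocytes and macrophages, was at background in wild-type medium and went from 61.1 and 56.7 to 508 and 444 in knockout medium, 8.08-fold higher (set difference 1.90, SE 0.56, limma adjusted p = 0.0414, 0.0021 to 0.132 with 1 sample left out). C4a, a complement gene, measured 7.92 and 25.3 in wild-type medium samples 1 and 2 and 68.2 and 46.8 in samples 3 and 4. C4a was 170.0 and 192 in knockout medium samples 1 and 2 and 1535 and 1164 in samples 3 and 4. The samples did not overlap in either medium, and samples 3 and 4 were at least 2.61-fold higher in wild-type and 7.45-fold higher in knockout medium (log2 difference 2.39, SE 0.34, limma adjusted p = 0.00222).

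With the deposited scaling few genes were lower in samples 3 and 4, 7 of the 455 tested (1.54%). That count depended on the scaling, from 1 with positive-control factors alone to 75 with median and 161 with T cell gene scaling. Hist2h2aa1, a histone H2A gene with many near-identical copies that probes may not tell apart, was 4821 and 4608 in wild-type medium samples 1 and 2 and 3854 and 3291 in samples 3 and 4. Hist2h2aa1 was 10679 and 10868 in knockout medium samples 1 and 2 and 5052 and 5795 in samples 3 and 4. It was lower without overlap in both media (log2 difference -0.70, SE 0.13, limma adjusted p = 0.00607), and the fall was larger in knockout medium (interaction -0.59, SE 0.13, limma adjusted p = 0.00633), a call lost with positive-control factors alone, without the mean-variance trend and with T cell gene scaling. The mitotic kinesin gene Kif20a measured 358 and 337 against 256 and 256 in wild-type medium and 67.8 and 54.4 against 43.5 and 43.6 in knockout medium. Kif20a fell by 0.45 on the log2 scale (limma adjusted p = 0.025, 0.0319 to 0.0759 with 1 sample left out). Cdc20, an activator of the anaphase-promoting complex, measured 434 and 379 against 302 and 307 in wild-type medium and 58.5 and 56.7 against 50.9 and 41.7 in knockout medium. Cdc20 fell by 0.36 on the log2 scale (limma adjusted p = 0.0498, 0.0389 to 0.173 with 1 sample left out). Neither call held with positive-control factors alone or without wild-type medium sample 1 or 3. Of the 7 tested cell cycle genes Cdc20 was the only one that passed in the set difference with limma as reported. With edgeR 0 were higher and 4 lower, and with DESeq2 0 were higher and 3 lower. The list's median was -0.15, negative under every scaling tried. Dusp1, a phosphatase of the MAP kinases, and Maff, a small Maf factor, fell by 0.41 and 0.43 on the log2 scale (limma adjusted p = 0.0273 and 0.046, 0.0406 to 0.0744 and 0.038 to 0.13 with 1 sample left out), with Maff lost under 11 of 21 alternatives.

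Some genes moved in opposite directions in the media or passed in wild-type medium. A total of 4 genes passed within both media with opposite signs, and they were singled out for this after their values were seen. S100a4, a calcium-binding protein of motile and memory cells, went from 1141 and 1059 to 743 and 804 in wild-type medium and from 291 and 284 to 1129.7 and 946 in knockout medium (interaction 2.35, SE 0.14, limma adjusted p = 3.92e-07). Fn1, the matrix protein fibronectin, and Nampt, the enzyme of NAD salvage, also fell in wild-type medium, by 0.42 and 0.45 on the log2 scale, and rose by 0.64 and 0.47 in knockout medium. Il1rl1, the receptor for IL-33, did the reverse. It went from 4869 and 5195 to 7888 and 7516 in wild-type medium, while its values in knockout medium, 6.64 and 6.95 and 5.30 and 3.79, were all below background and their order has no meaning. Nfkbia, the inhibitor of NF-kappaB that NF-kappaB itself induces, was 204 and 214 and then 102 and 104 in wild-type medium, without overlap, and 42.5 and 62.5 and then 55.2 and 59.7 in knockout medium (interaction 1.16, SE 0.29, limma adjusted p = 0.0154). Gadd45b, a stress-response gene, fell by 1.11 on the log2 scale in wild-type medium (limma adjusted p = 0.00398) and differed by -0.04 in knockout medium. Both interactions were lost with median and quantile scaling. Of 14 tested genes of the NF-kappaB and TNF receptor list, 2 rose in the set difference, against 19.8% higher over all genes. EdgeR and DESeq2 each gave 1 higher and 2 lower. A positive interaction was found for 5 members, against 16.9% of all tested genes, but for 1 with edgeR and 0 with DESeq2. The list's median in the set difference was 0.15, but -0.04 to -0.37 with the scalings other than positive-control factors. Adamts1 and Ptgs2, a matrix protease and the inducible cyclooxygenase, rose by 0.57 and 0.70 on the log2 scale in wild-type medium and had negative interactions of -0.60 and -0.93 (limma adjusted p = 0.015 and 0.0194). The interaction of Adamts1 was lost under 6 of 20 alternatives, and that of Ptgs2, which was below background in all knockout medium samples, under 10 of 20 (limma adjusted p of 0.0159 to 0.0756 and 0.00466 to 0.107 with 1 sample left out).

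**Figure D4:**
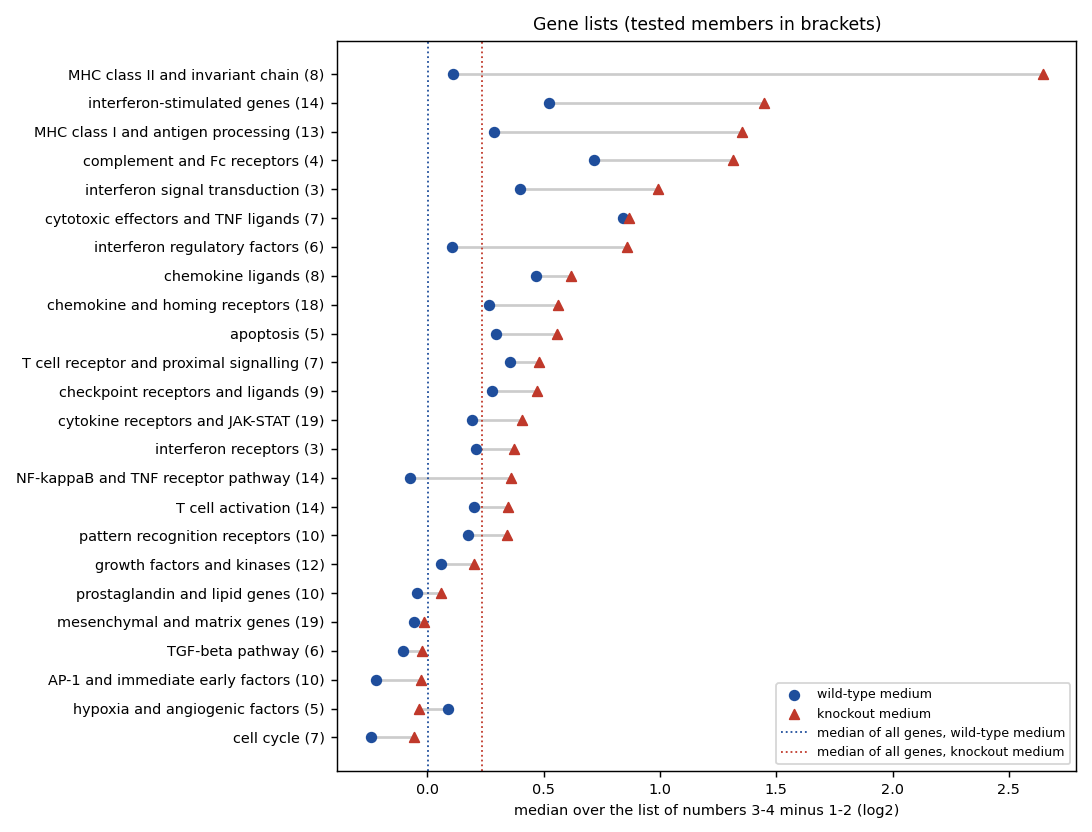
Median log2 difference of samples 3 and 4 from samples 1 and 2 over the tested members of each gene list, in wild-type medium (blue circles) and knockout medium (red triangles), with dotted lines at the medians of all genes. MHC class II, MHC class I and interferon-stimulated genes show the widest gaps between media, and the cytotoxic list has medians of 0.84 and 0.87.

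The other lists are read against the 19.8% of all tested genes that were higher and the 1.54% that were lower. Of 10 pattern recognition genes 3 rose in the set difference and 7 did not pass, the 3 being Casp1, the inflammasome protease, Tlr3, a receptor for double-stranded RNA, and Tmem173, which encodes the DNA sensing adaptor STING. Casp1 measured 96.6 and 121 against 179 and 201 in wild-type medium and 29.2 and 32.4 against 81.7 and 63.5 in knockout medium for samples 1 and 2 against 3 and 4. Casp1 rose by 1.00 on the log2 scale (limma adjusted p = 0.00335). Tlr3 rose by 0.95 and Tmem173 by 0.63 on the log2 scale (limma adjusted p = 0.0168 and 0.0168, 0.0075 to 0.0574 and 0.0123 to 0.0577 with 1 sample left out). Tlr3 lost its call without knockout medium sample 1, 2 or 4 and with T cell gene scaling. Tmem173 lost it without knockout medium sample 1 or 2 and with median, quantile and T cell gene scaling and DESeq2. Of 5 apoptosis genes 3 rose, Casp1 among them, and Bid, a link between death receptors and mitochondria, rose by 0.38 on the log2 scale. Bid lost its call under 11 of 21 alternatives, edgeR and DESeq2 among them, and T cell gene scaling turned its sign. Of 10 AP-1 and immediate early genes 2 rose and 1 fell. Dusp6, a feedback phosphatase of ERK, was 211 and 192 against 261 and 243 in wild-type medium and 526 and 560.4 against 1331 and 1079 in knockout medium, with an interaction of 0.82 (SE 0.16, limma adjusted p = 0.00432) that was lost with median, quantile and T cell gene scaling. Of 12 growth factor and kinase genes Csf1, Met and Pik3cg rose and 9 did not pass. Csf1, the macrophage growth factor, was 643 and 557 against 692 and 656 in wild-type medium and 133 and 140.1 against 291 and 259 in knockout medium. The calls of Csf1 and Met were lost under 12 of 21 alternatives each and that of Pik3cg under 11 of 20. In addition, T cell gene scaling turned the sign of Met. Of 5 hypoxia and angiogenic genes Hif1a, an oxygen-sensing factor, was the 1 that rose. Of 10 prostaglandin and lipid genes G6pdx, an enzyme of the pentose phosphate pathway, was the 1 that rose. Hif1a and G6pdx each lost their call under 12 of 21 alternatives, which included all 4 that left out a knockout medium sample, edgeR and DESeq2. Their log2 differences were 0.24 to 0.34 and 0.35 to 0.51 with 1 sample left out. In addition, T cell gene scaling turned the sign of both. Of 6 TGF-beta genes 0 passed in the set difference (limma, 0 higher and 2 lower at an unadjusted p under 0.05, and 0 higher and 2 lower with edgeR and with DESeq2). Of 19 mesenchymal and matrix genes 1 rose, Kitl, the ligand of KIT. In wild-type medium it measured 1158 and 1298 and then 1578 and 1496, and in knockout medium it stayed at or below 18.0, under background. Its call was lost under 9 of 21 alternatives. The medians of the AP-1, hypoxia, TGF-beta, mesenchymal, prostaglandin and growth factor lists lay between -0.11 and 0.07 in the set difference, close to the 0.11 of all genes. Adam8, a metalloprotease gene of leukocytes on the mesenchymal and matrix list, had an interaction of 1.65 (SE 0.19, limma adjusted p = 9.38e-05), going from 63.8 and 62.5 to 198 and 177 in knockout medium.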

How the data were processed

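Expression was measured by nCounter barcode counting in 8 samples, and the deposited values are a normalized signal: 99.9% to 100% of the authors' values per sample came out as whole counts (tolerance 0.1) after division by 1 factor per sample (0.792 to 1.33), with lower values listed as 1. For the software and for the normalization behind those factors: not given in the sources used here. Of the deposited symbols, 744 matched RefSeq (GRCm38.p6) as current names, 9 as older names and 1 did not match. Genes with a mean of at least 22 over the 8 samples were tested (455, with 299 left out), a level set from the unscaled counts of the 8 negative control probes (mean plus 2 SD, 22.1).

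Values were tested as log2(value + 1) with limma 3.58.1 in R 4.3.3 (lmFit, eBayes with a mean-variance trend), with Benjamini-Hochberg adjustment over the 455 genes and a threshold of 0.05. The set difference was fitted with medium as a covariate, and the interaction and the differences within each medium in a fit of all 4 groups. Fold changes on the log2(value + 1) scale understate changes of low genes. Folds are ratios of group means, with a mean below 22 raised to 22 and the fold then given as at least that size.

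The 125 named genes (113 tested) included the 12 largest increases in the set difference that passed without overlap of the sets in either medium. Up to 12 such decreases were to be named, and 6 were found. Further ones were the 10 largest interactions that passed and up to 4 tested members of each list by the smallest p of the set difference. The rest were a fixed group of which 13 were measured and the 3 most abundant measured members of each marker list. All named genes and all lists were chosen with earlier results of these data known. The alternatives were other pseudocounts and minimum levels, median and quantile scaling, positive-control factors alone, edgeR 4.0.16 (TMM, quasi-likelihood) and DESeq2 1.42.0 on the recovered counts, a fit without the trend, each sample left out in turn, other model terms and, added after seeing the data, scaling to T cell receptor genes. The limma fits were also run on counts simulated with 1 spread setting for all genes, balanced rises and falls and known scale factors. That run does not test the choice of scaling. Promoter windows came from RefSeq. Results for some genes are not reported here.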

Additional observations from a re-analysis of the deposited data

Results flagged for a closer look

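Among the named genes, 226 groups of 4 samples of a medium were examined, and in 6 the highest or lowest sample stood apart from the others by more than Dixon's 95% critical value. A chance rate of about 1 in 20 holds for 4 like samples only. Each group here pooled the number sets, and many named genes were chosen for a difference between those sets. Such a difference widens the range of a group and can hide a sample that stands apart. The count of 6 therefore cannot be compared with chance and does not show that the other groups were free of outliers. In wild-type medium sample 1, H2-Eb1 was listed at 1 and Mx1 stood at 30.1, against 20.9 and 20.2 in samples 3 and 4. In wild-type medium sample 3, Ifngr1 stood at 595 and Alox5ap, which encodes the protein that activates 5-lipoxygenase, at 31.8. In knockout medium Alox5ap stood at 9.48 in sample 4 and Ptgs2 at 18.6 in sample 1, both below background.

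The difference between samples 3-4 and 1-2 depended on the medium for 32 named genes by the interaction term (limma, adjusted p under 0.05 over all genes tested). Given as the difference in knockout medium minus that in wild-type medium on the log2 scale, the MHC class II genes stood at 4.16 (H2-Aa), 2.79 (Cd74), 2.73 (H2-Eb1), 2.62 (H2-Ab1), 2.53 (H2-DMb1) and 2.21 (H2-DMa). The class I genes stood at 1.52 (H2-T23), 0.70 (Tap1) and 0.64 (Tap2). Among interferon regulatory factors and targets the values were 2.16 (Irf8), 1.34 (Irf7), 1.26 (Irf1), 0.57 (Irf2), 2.66 (Mx1), 1.57 (Isg15), 2.86 (Cxcl9) and 0.95 (Cxcl10). Secreted factors stood at 1.46 (Ccl5), 1.48 (Il18), 0.94 (Kitl), 0.83 (Csf1) and 0.32 (Mif). Other positive values were 2.35 (S100a4), 1.65 (Adam8), 1.16 (Nfkbia), 1.08 (Gadd45b), 0.82 (Dusp6) and 0.58 (Ets1). Negative values were -1.12 (Il1rl1), -0.93 (Ptgs2), -0.60 (Adamts1) and -0.59 (Hist2h2aa1). Kitl, Il1rl1 and Ptgs2 lay below background in all knockout medium samples, and H2-Eb1, H2-Ab1 and Irf8 in all wild-type medium samples, so these 6 interactions compare a measured difference with one at background.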

How the results depend on the processing

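The counts of genes that passed depended on the scaling, the model and the samples, given here as higher and lower genes in that order. The set difference, 90 and 7 as reported, gave 54 and 75 under median scaling, 46 and 52 under quantile normalization, 67 and 1 with positive-control factors alone, 65 and 44 with edgeR, 62 and 36 with DESeq2, 61 and 3 without the mean-variance trend, 124 and 25 in the fit with the interaction term, and 28 and 161 with T cell gene scaling, which was chosen after seeing the data. Without the medium term it gave 0 and 0, since the difference between media then enters the residual spread. The interaction, 77 and 8 as reported, gave 29 and 51, 28 and 31, 192 and 2, 48 and 16, 33 and 15 and 44 and 5 under the first 6 of those settings, and 43 and 1 with T cell gene scaling. The difference in wild-type medium, 43 and 27 as reported, gave 25 and 12 without the trend and 15 and 178 with T cell gene scaling, and the lower genes numbered 43 with median scaling and 47 with edgeR. The difference in knockout medium, 140 and 14 as reported, gave 59 and 158 under median scaling, 59 and 106 under quantile normalization, 240 and 4 with positive-control factors alone, 93 and 58 with edgeR, 71 and 35 with DESeq2 and 47 and 65 with T cell gene scaling. The cause of these shifts was not tested. With 1 sample left out, the set difference gave 38 to 86 higher and 1 to 8 lower genes, the interaction 38 to 76 and 3 to 9, the difference in wild-type medium 20 to 40 and 4 to 24, and that in knockout medium 78 to 141 and 6 to 17. A medium left with 1 sample of a number set was assumed to vary like the other groups. Pseudocounts of 0.5 and 10, no minimum and a minimum of 50 moved none of these counts by more than 1.5 times.

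No paired analysis was possible because the sample number fixes the set for the set difference and the within-medium differences. For the interaction, samples of the same number correlated by 0.188 to 0.465 in their deviations from the medium means, which contain the set difference, and by 0.109 (numbers 1 and 2) and 0.0126 (numbers 3 and 4) with the set removed, so the numbers were not taken to pair the samples. With the replicate block, the interaction gave 105 and 18, and none of the 32 named interactions lost its call. Among the 65 named genes that passed for the set difference, T cell gene scaling turned these to negative values: Ifngr1 -0.0824, Ptprc -0.0642, Vsir -0.027, Tnfrsf14 -0.0353, Tnfrsf1a -0.0652, Traf1 -0.12, Bid -0.15, Atf3 -0.15, Hif1a -0.23, G6pdx -0.10 and Met -0.18. Median scaling turned the interaction of Mif to -0.10. Of the 32 named interactions, 13 kept their call under every alternative. DESeq2 gave no adjusted p for 18 genes in the set difference and 106 in the interaction.

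Level limits the low genes: those below 22, such as Ifng and, in wild-type medium, H2-Ab1 and H2-Eb1, lie near the negative control probes, where values have no firm order. Of the other class II genes, Cd74, H2-DMa and H2-DMb1 lay above 22 in every wild-type medium sample. Intervals of counts cover counting error only, and 2 samples per medium and set give 1 within-pair difference each.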
